A study of Mus musculus with 43 samples.

Results

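The 8 genes described here encode enzymes that place or remove acetyl groups on chromatin and a scaffold that holds some of the removing enzymes: Crebbp, Ep300, Kat2a, Kat2b, Hdac1, Hdac2, Hdac3 and Sin3a. They were taken by symbol from the mouse RefSeq gene table, 8 of 21521 protein-coding genes. A region of EKLF binding was assigned to a gene when its centre lay in the gene body or within 10 kb of either end. This gave 12 of 15564 Nan/+ regions and 10 of 9181 WT regions. The study sampled fetal liver at embryonic day E13.5 from Nan/+ embryos, which carry 1 copy of the Nan allele of Klf1, and from WT littermates of the Nan strain. EKLF, the product of Klf1, is an erythroid zinc finger transcription factor, and the Nan allele alters 1 of its zinc fingers. EKLF was precipitated with the antibody 7B2a from 3 Nan/+ and 3 WT libraries, which were combined into 1 deposited list of regions per genotype. The labels call the cells primary erythroid, and their protocol describes dispersed whole fetal liver with no sorting step.

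Depths were similar in the genotypes, at 72023512 to 100763687 tags per Nan/+ ChIP library and 74140385 to 103170594 tags per WT ChIP library, per the file headers. The lists give positions and widths, with no strength per region and no value per library. No spread between replicates can be computed, so the genotypes are compared here without a test, and a region missing from a list may lie just under its calling threshold. The Nan/+ list was called with a larger peak size than the WT list, so widths are not on the same footing in the lists. The erythroid markers Klf1, Gata1, Epor, Slc4a1 and Alas2 all had regions in both lists. Hepatoblast markers had them at 2 of 4 genes in each list, with Afp at 7 Nan/+ and 2 WT regions. Macrophage markers had them at 1 of 4 in each, and megakaryocyte markers at 3 of 4 in Nan/+ and 2 of 4 in WT. The shares over all protein-coding genes were 37.5% in Nan/+ and 33.5% in WT. So few markers do not measure the cell content, which was not tested.

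CBP, encoded by Crebbp, and p300, encoded by Ep300, are large coactivators that transcription factors bring to enhancers and promoters, where they acetylate histone tails, including the lysine read as H3K27ac. GCN5, encoded by Kat2a, and PCAF, encoded by Kat2b, are alternative catalytic subunits of the SAGA and ATAC complexes. Hdac1 and Hdac2 encode closely related deacetylases that work in the SIN3, NuRD and CoREST complexes, Hdac3 encodes the deacetylase of the NCoR and SMRT corepressors, and Sin3a encodes the scaffold of the SIN3 complex. EKLF itself is known as a partner and an acetylation substrate of CBP and p300, and as a partner of Sin3a and HDAC1 in repression. The comparison here is a different one: where EKLF lay at the genes that encode these cofactors.

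All 8 genes had a WT region and 6 of 8 had a Nan/+ region, Kat2b and Hdac2 being those without one. Of all protein-coding genes 37.5% had a Nan/+ region and 33.5% a WT region. Regions were present in both lists at 6 of the 8 genes, against 23.5% of all genes. In Nan/+ alone there were 0 of the 8 (14.1% of all genes), and in WT alone 2 of the 8 (10.1%). Long genes gather more regions under this rule. The median length was 42.0 kb over the 8 genes and 17.4 kb over all protein-coding genes, and the part of length in these counts was not tested. Kat2a, at 7.74 kb, was the shortest of the 8 and Crebbp, at 133.0 kb, the longest.

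**Figure D1:**
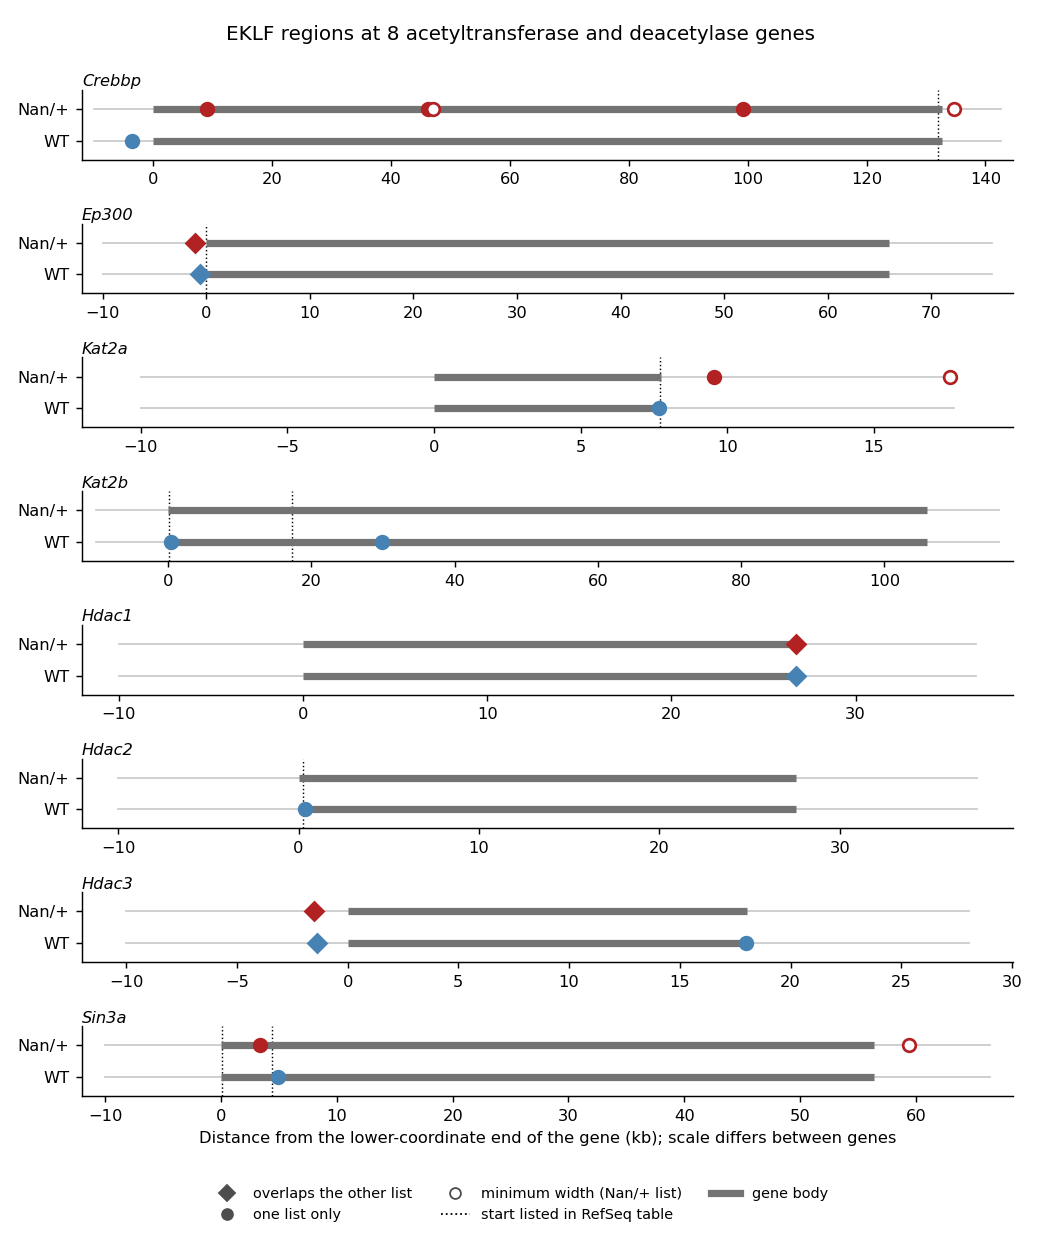
Positions of EKLF regions at the 8 genes, with Nan/+ above WT in each panel and the distance from the lower-coordinate end of the gene in kb on the horizontal axis. Diamonds overlap a region of the other list, open circles are Nan/+ regions of the minimum width, dotted lines are starts listed by RefSeq, and Crebbp is the gene with 5 Nan/+ regions against 1 in WT.

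The sequences just before transcription starts are printed first because several WT regions lay there. They are the 250 bases before a start, 5′ to 3′ in the direction of the gene, from RefSeq (GRCm38.p6, the assembly that mm10 renders). Capitals mark every match to CCNCNCCC, a loose form of the CACCC-type element that EKLF binds, on either strand and with overlaps allowed. Ep300, Kat2a and Hdac2 are shown because a WT region covered part or all of the stretch, Sin3a because regions of both lists flanked its second listed start, and Crebbp because it holds many matches and no region of either list.
Ep300, chr15:81585964-81586213, plus strand: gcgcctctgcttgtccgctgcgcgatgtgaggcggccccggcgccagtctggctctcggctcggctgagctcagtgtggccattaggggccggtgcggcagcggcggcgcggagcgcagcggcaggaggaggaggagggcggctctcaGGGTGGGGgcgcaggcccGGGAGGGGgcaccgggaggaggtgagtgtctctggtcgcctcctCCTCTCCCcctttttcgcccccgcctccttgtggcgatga
Kat2a, chr11:100712468-100712717, minus strand: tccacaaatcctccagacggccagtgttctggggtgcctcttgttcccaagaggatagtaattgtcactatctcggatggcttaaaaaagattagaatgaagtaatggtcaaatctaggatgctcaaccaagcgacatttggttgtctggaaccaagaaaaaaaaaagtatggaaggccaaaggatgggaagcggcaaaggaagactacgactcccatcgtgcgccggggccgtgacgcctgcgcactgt
Hdac2, chr10:36974294-36974543, plus strand: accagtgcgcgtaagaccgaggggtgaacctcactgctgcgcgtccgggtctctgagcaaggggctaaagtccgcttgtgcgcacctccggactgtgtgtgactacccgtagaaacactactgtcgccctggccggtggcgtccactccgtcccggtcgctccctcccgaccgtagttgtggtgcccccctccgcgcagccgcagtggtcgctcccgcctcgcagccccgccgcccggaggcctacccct
Sin3a, chr9:57076126-57076375, plus strand: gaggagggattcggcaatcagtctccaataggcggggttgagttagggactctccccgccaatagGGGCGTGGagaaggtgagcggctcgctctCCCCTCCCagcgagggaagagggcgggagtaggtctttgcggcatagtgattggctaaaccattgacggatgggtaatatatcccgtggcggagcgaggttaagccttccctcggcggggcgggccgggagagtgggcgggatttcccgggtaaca
Crebbp, chr16:4213405-4213654, minus strand: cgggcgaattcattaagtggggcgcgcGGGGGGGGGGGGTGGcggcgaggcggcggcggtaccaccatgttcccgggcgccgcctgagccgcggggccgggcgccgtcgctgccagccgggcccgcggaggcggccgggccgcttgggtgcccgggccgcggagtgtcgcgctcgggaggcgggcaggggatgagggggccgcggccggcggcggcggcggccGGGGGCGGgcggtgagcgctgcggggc
The Ep300 stretch holds 3 matches, with first bases at -102, -84 and -40 relative to the start (counted as 0), and all of them lay inside the WT region and outside the Nan/+ region. The stretches of Kat2a and Hdac2 hold 0 matches although a WT region covered 110 and 250 of their bases. Both listed starts of Kat2b also have 0. Crebbp has 7, of which 6 overlap in a single G-rich run. At the second start of Sin3a 1 of the 2 matches is also a match to CCACGCCC, at -185, and it lay in no region of either list.

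Of 21045 such stretches before starts of protein-coding genes, 53.4% hold CCNCNCCC, and the share was 72.1% of those that a Nan/+ region overlapped and 72.3% of those that a WT region overlapped. For CCACGCCC the shares were 6.39% of all, 13.3% with a Nan/+ region and 13.2% with a WT region. CCACACCC, found in 3.34% of all, had 0 matches in the stretches of these genes, and so did AGATAA, the core that GATA1 and its relatives bind, found in 8.84%. The CCACACCC shares were 4.33% with a Nan/+ region and 3.81% with a WT region. Those of AGATAA were 4.99% and 4.52%, below its share of all stretches, and the reason for these differences between motifs was not tested. Of the 6 genes with such a stretch, a Nan/+ region overlapped it at 0 (12.7% of all genes with one) and a WT region at 3, Ep300, Kat2a and Hdac2 (20.2%). A match is a description of letters and does not mark a bound site.

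Crebbp had 5 Nan/+ regions and 1 WT region, with 0 overlaps. All 5 Nan/+ regions lay away from the start. The regions in the body, chr16:4090176-4090474, chr16:4127439-4127658, chr16:4128239-4128414 and chr16:4180350-4180592, were 299, 220, 176 and 243 bp wide. The region nearest the start, chr16:4216002-4216177, began 2598 bp upstream and had the minimum width of 176 bp. The only WT region, chr16:4077411-4078146, was 736 bp wide, wider than 86.5% of its list. It lay outside Crebbp, 3555.5 bp from its end by the centre and inside the neighbouring gene Trap1, which encodes a mitochondrial chaperone, with the centre 31.5 bp from the Trap1 start. The body of Crebbp therefore held 4 Nan/+ regions and 0 WT regions.

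At least 5 Nan/+ regions were assigned to 3.03% of all protein-coding genes and to 13.2% of the 968 genes between 100 and 150 kb long. Of those long genes 81.0% had at most 1 WT region. Without the Nan/+ regions of the minimum width, Crebbp had 3 Nan/+ regions and 1 WT region.

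Ep300, the paralog of Crebbp, had 1 region in each list and they overlapped. The Nan/+ region, chr15:81584885-81585442, was 558 bp wide and ended 772 bp before the start. The WT region, chr15:81585041-81586185, was 1145 bp wide and ended 29 bp before the start. Each was the widest region of its list at the 8 genes, wider than 94.5% of the Nan/+ list and 97.2% of the WT list. They shared 402 bp, which is 72.0% of the Nan/+ region and 35.1% of the WT region. Their centres were 449.5 bp apart, against a median of 104.0 bp over the 2250 overlapping pairs of the lists, and the Nan/+ centre was the farther from the start. The part of the WT region that faces the gene, with the 3 matches printed above, had no Nan/+ counterpart.

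Kat2a had 2 Nan/+ regions and 1 WT region, with 0 overlaps. The WT region, chr11:100712270-100712577, was 308 bp wide and covered the start, its centre 43.5 bp past it, and it was also within 10 kb of Dhx58, Hspb9 and Rab5c. The Nan/+ regions lay upstream and inside other genes. The region chr11:100714178-100714396, 219 bp wide, lay in Hspb9, a small heat shock protein gene, and was 1600 bp from the WT region. The region chr11:100722265-100722440, 176 bp wide, lay in Rab5c, which encodes an endosomal GTPase. Its centre was 9867.5 bp beyond Kat2a, the closest to the 10 kb limit of any region counted. The closest region left out, at Ep300, had its centre 11837 bp from the gene and was a WT region. Counting gene bodies alone, Kat2a had 0 Nan/+ regions and 1 WT region.

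Kat2b, the paralog of Kat2a, had 0 Nan/+ regions and 2 WT regions. The region chr17:53567056-53567462, 407 bp wide, began 85 bp past the first listed start. The region chr17:53596427-53596792, 366 bp wide, lay 12301 bp past the second listed start. The nearest Nan/+ centre was 87.9 kb from the gene. Kat2b is 106.0 kb long, and 41.2% of genes between 100 and 150 kb had 0 Nan/+ regions, while 59.1% had 0 WT regions.

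Among the deacetylases Hdac1 had 1 region in each list, at the same place. The Nan/+ region, chr4:129542667-129543044, was 378 bp wide and lay whole inside the WT region, chr4:129542512-129543252, which was 741 bp wide. Their centres were 26.5 bp apart and lay 209.5 bp (Nan/+) and 236 bp (WT) beyond the higher-coordinate end of the gene. They also lay within 10 kb of Lck, which encodes a lymphoid tyrosine kinase. This was the only Nan/+ region at the 8 genes with its centre within 1 kb of an end of the gene it was assigned to.

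Hdac2 had 0 Nan/+ regions and 1 WT region, chr10:36974247-36975092, 846 bp wide and wider than 91.4% of the WT list. It covered the start and all of the 250 bases before it. The nearest Nan/+ centre was 81.4 kb from the gene. The close paralogs Hdac1 and Hdac2 thus differed in the Nan/+ list, with a region at an end of Hdac1 and 0 at Hdac2, while the WT list had a wide region at an end of each.

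Hdac3 had 1 Nan/+ region and 2 WT regions. On chromosome 18 the Nan/+ region, from 37935286 to 37935610, and a WT region, from 37935446 to 37935745, were 325 and 300 bp wide and shared 165 bp. This pair lay inside Diaph1, a formin gene that regulates actin, with centres 174 bp (Nan/+) and 26.5 bp (WT) from an end of Diaph1. From the lower-coordinate end of Hdac3 the centres were 1523 bp (Nan/+) and 1375.5 bp (WT) away. The other WT region, from 37954681 to 37955198 and 518 bp wide, lay over the higher-coordinate end of Hdac3, 75.5 bp inside the gene by its centre. It was also within 10 kb of Rell2 and Fchsd1. It had no Nan/+ counterpart, the nearest being 19070 bp away.

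Sin3a had 2 Nan/+ regions and 1 WT region, with 0 overlaps. RefSeq lists starts at 57072040 and 57076376 on chromosome 9, and the regions in the body flanked the second of them. The Nan/+ region, chr9:57075239-57075526, was 288 bp wide and ended 850 bp before that start. The WT region, chr9:57076766-57077007, was 242 bp wide, the narrowest WT region of the 8 genes, and began 390 bp after it. They were 1239 bp apart, the smallest gap between regions of different lists that did not overlap at these genes. The other Nan/+ region, chr9:57131300-57131475, had the minimum width of 176 bp and lay in Man2c1, a mannosidase gene, 3019.5 bp beyond Sin3a.

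**Figure D2:**
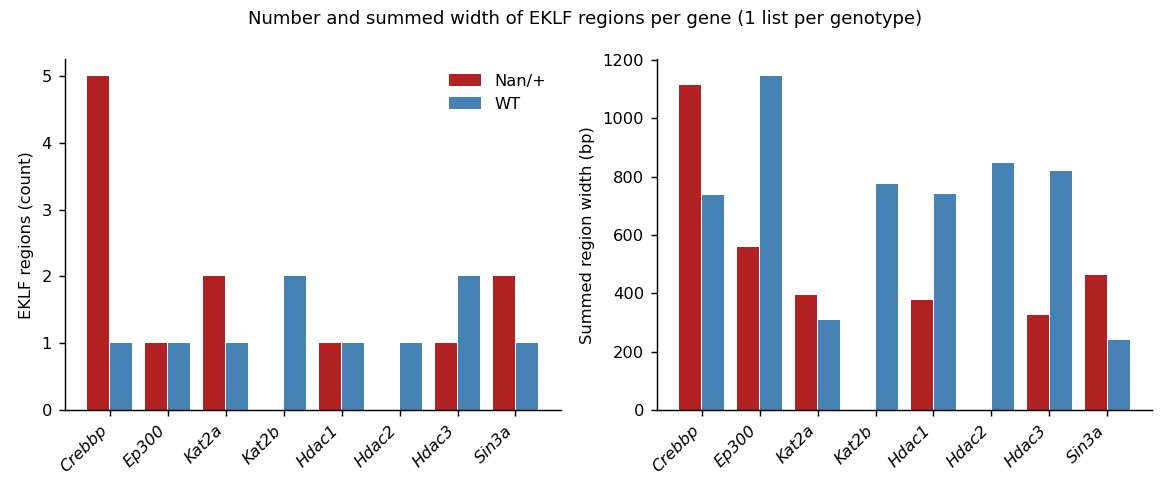
Number of EKLF regions (left) and their summed width in bp (right) for each of the 8 genes, with Nan/+ bars left of WT bars and 1 list per genotype, so no error bars. Crebbp had 5 Nan/+ regions and 1 WT region, and Kat2b and Hdac2 had none in Nan/+; Nan/+ widths were called with a larger peak size.

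Across the 8 genes, 3 of 12 Nan/+ regions overlapped the WT list (25.0%, exact binomial 95% interval 5.49 to 57.2), against 14.7% of all Nan/+ regions. Of the WT regions 3 of 10 overlapped the Nan/+ list (30.0%, interval 6.67 to 65.2), against 24.5% of all WT regions. These intervals cover counting error only and take in the shares of the whole lists. The overlaps were at Ep300, Hdac1 and Hdac3. When at least 50% of both regions had to overlap, 2 of 12 Nan/+ and 2 of 10 WT regions were shared. The counts were the same when centres had to lie within 250 bp. Shares of the whole lists were not computed under either of these stricter rules, so the counts have no background to be read against. The Ep300 pair fell short of both rules. Regions in both lists with 0 overlap occurred at 3 of the 8 genes, Crebbp, Kat2a and Sin3a, and at 10.1% of all protein-coding genes.

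The lists were close in the number of regions at these genes, 12 in Nan/+ and 10 in WT, and farther apart in regions at gene ends. A Nan/+ region centre within 1 kb of either end was present at 1 of the 8 genes, and a WT centre at 6. The shares over all protein-coding genes were 16.3% for Nan/+ and 21.3% for WT. The WT genes were Ep300, Kat2a, Kat2b, Hdac1, Hdac2 and Hdac3. Of the 6 genes with a start in the RefSeq promoter table, which leaves out Hdac1 and Hdac3, a Nan/+ centre lay within 1 kb of a start at 1 (Sin3a) and a WT centre at 5. The shares of all such genes were 16.4% for Nan/+ and 22.4% for WT. The Nan/+ values lie close to that limit, at 993.5 bp for Sin3a and 1050.5 bp for Ep300. With 2 kb in place of 1 kb, a Nan/+ centre was near an end at 4 of the 8 genes and a WT centre at 6. The shares of all genes were not computed at 2 kb, so these counts have no background to be read against.

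Some regions lay at the ends of neighbouring genes. Counting the ends of any protein-coding gene, 4 of 12 Nan/+ regions and 8 of 10 WT regions had their centre within 1 kb of one, against 21.8% of all Nan/+ regions and 46.1% of all WT regions. Inside the body of another gene lay 4 of the 12 Nan/+ regions and 2 of the 10 WT regions. More than 10 kb from any end of their own gene lay 3 Nan/+ regions, all in Crebbp, and 1 WT region, in Kat2b. For regions inside another gene or this far from an end, the shares of the whole lists were not computed. These counts therefore have no background to be read against.

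**Figure D3:**
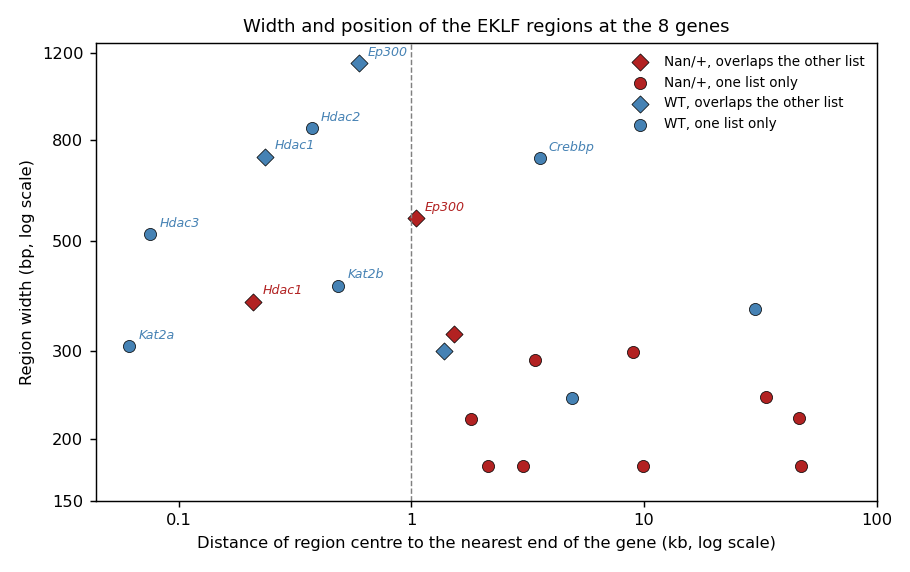
Width of each EKLF region in bp against the distance of its centre from the nearest end of its gene in kb, both on log scales, with the dashed line at 1 kb. Left of the line are 6 WT regions and 1 Nan/+ region, at Hdac1; the Nan/+ regions with no WT overlap all lie to its right at 299 bp or less.

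The Nan/+ regions of the 8 genes ranged from 176 to 558 bp with a median of 231.5 bp, and the WT regions from 242 to 1145 bp with a median of 462.5 bp. The medians of the whole lists were 176 bp and 396 bp. The minimum width was held by 4 of the 12 Nan/+ regions, against 54.5% of the Nan/+ list, and by 0 of the 10 WT regions, against 3.29% of the WT list. These 4 lay at Crebbp, Kat2a and Sin3a, and each of these genes also had a wider Nan/+ region. Thus the same 6 genes had a Nan/+ region above the minimum width, as did 25.1% of all protein-coding genes.

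Other genes of the acetylation pathways were counted from 6 lists with 63 genes, all of which matched the gene table. A Nan/+ region was present at 53 of the 63 (84.1%, against 37.5% of all protein-coding genes) and a WT region at 42 (66.7%, against 33.5%). Regions in both lists were present at 39 of the 63, against 23.5% of all genes. The median length of the 63 genes was 34.4 kb. Their median number of regions was 2 in Nan/+ and 1 in WT, against 0 in each list over all protein-coding genes. A region in Nan/+ alone was present at 14 of the 63, against 14.1% of all genes, and one in WT alone at 3, against 10.1%.

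The other acetyltransferases had Nan/+ regions at 10 of 10 genes and WT regions at 4 of 10, against 37.5% and 33.5% of all protein-coding genes. The WT count was near its share. Their median length was 66.5 kb, and the part of length was not tested. Kat6a, of the MYST family, had 5 Nan/+ and 4 WT regions with 0 overlaps, and its paralog Kat6b had 3 and 1. Ncoa3, a nuclear receptor coactivator, had 3 Nan/+ and 0 WT regions. The other deacetylases, of median length 20.0 kb, had Nan/+ regions at 12 of 13 and WT regions at 10 of 13, against those same shares. Hdac4, a class II enzyme, had 3 regions in each list, and Sirt7, a nucleolar sirtuin, had 2 Nan/+ and 4 WT regions.

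Partners of the deacetylases were counted by complex, over lists whose median gene lengths were 60.9 kb for NuRD, 24.3 kb for SIN3 and 142.0 kb for NCoR and SMRT. Differences between these lists were not tested. The shares of all protein-coding genes with a region were 37.5% in Nan/+ and 33.5% in WT. The NuRD partners, which join Hdac1 and Hdac2 in a nucleosome remodelling complex, had regions at 7 of 7 genes in each list, and at 6 of 7 a WT region overlapped the Nan/+ list, against 13.3% of all protein-coding genes. Gatad2a had 6 Nan/+ and 4 WT regions, 3 of each overlapping, and Mbd2, which encodes a methyl-DNA binding protein, had 4 in each list. The SIN3 partners had Nan/+ regions at 8 of 11 genes and WT regions at 7 of 11. Arid4b had 7 Nan/+ and 2 WT regions, and Suds3 had 2 Nan/+ and 4 WT regions. A WT region overlapped the Nan/+ list at 4 of the 11 SIN3 partners, against the same 13.3%. That count was 5 of 13 for the other deacetylases and 2 of 10 for the other acetyltransferases. It was 5 of 17 for the SAGA and ATAC partners and 3 for the 8 genes.

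In the NCoR and SMRT list, the corepressors of Hdac3, Nan/+ regions were at 5 of 5 genes and WT regions at 3 of 5. The all-gene shares were 37.5% in Nan/+ and 33.5% in WT. An overlap was present at 0 of 5, against 13.3% of all protein-coding genes. With 5 genes of median length 142.0 kb, that difference was not tested. The list totals were 29 Nan/+ and 7 WT regions. Ncor1 had 8 Nan/+ and 5 WT regions. Tbl1x had 8 Nan/+ and 0 WT regions, and Tbl1xr1, its paralog, had 7 and 0, of which 2 and 4 Nan/+ regions were above the minimum width. Both encode WD40 subunits of the complex, and they are 153.0 and 140.0 kb long. The SAGA and ATAC partners of Kat2a and Kat2b had regions at 11 of 17 genes in each list, against the same 37.5% and 33.5%. Taf5l had 4 Nan/+ and 3 WT regions, and Supt3 had 4 and 2.

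**Figure D4:**
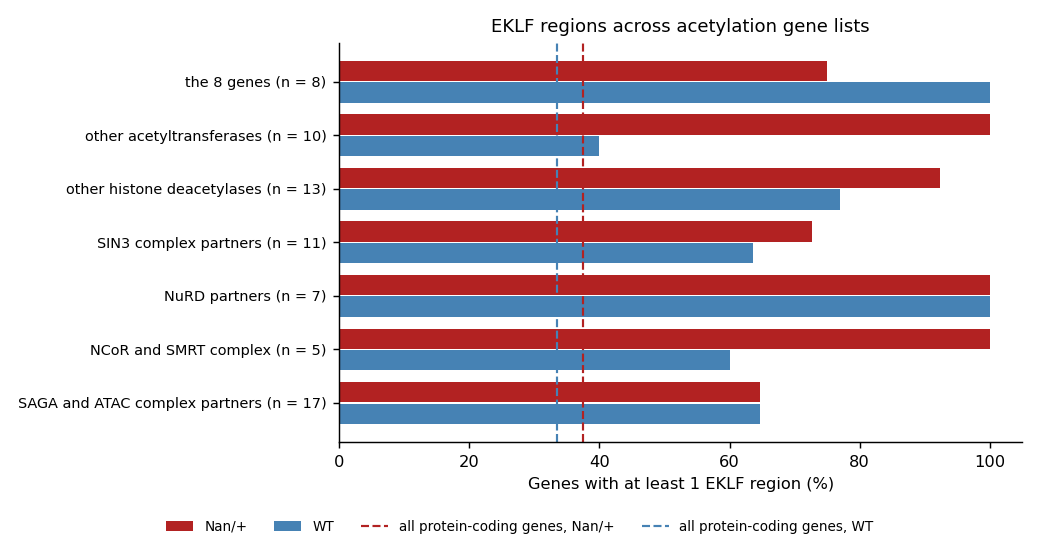
Percent of genes with at least 1 EKLF region for the 8 genes and 6 lists of related genes, with Nan/+ bars above WT bars and dashed lines at the shares of all protein-coding genes (37.5% in Nan/+ and 33.5% in WT). Of the 8 genes 75.0% had a region in Nan/+ and all had one in WT, and of the other acetyltransferases all had one in Nan/+ and 40.0% in WT.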

How the data were processed

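EKLF ChIP of 3 Nan/+ and 3 WT fetal liver libraries was analysed from 1 deposited list per genotype. Per the file headers, the authors called regions with HOMER on mm10, each genotype's ChIP libraries against 3 input places filled by 2 distinct inputs, with q 0.01, fold 4 and a DESeq2 step (false discovery rate 0.01, log2 fold 2). Peak size and minimum distance were 175 and 300 bp for Nan/+ and 125 and 250 bp for WT, per the file headers. Tools listed without roles were bcl2fastq 2.17, Bowtie2 2.1, SAMtools 1.1 and deepTools 3.5, per the submitters' processing notes. The score deposited by the authors was 1 in every row and was not used. The other deposited columns used are genome positions.

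Regions were assigned to genes of the RefSeq table of GRCm38.p6 with Python 3.11.15 and pandas 2.3.3. Of 21900 protein-coding genes, 269 on Y, the mitochondrion or unplaced sequence and 110 on extra scaffolds were left out. Overlap was at least 1 bp, and exact binomial (Clopper-Pearson) intervals came from SciPy 1.17.1. Coordinates are counted from 1. The table gives no exons. One planned marker gene is not reported here. The assignment was tested on simulated regions. Promoter sequences covered 6 of the 8 genes, and the protein comparison planned at the start was not run. All 8 genes are named with every region and the neighbours that share one, and from each other list the 2 genes with most regions in all and any with at least 3 in 1 list and 0 in the other. The members and lists were chosen with earlier results of these data known. Alternatives covered the overlap rule, the gene window, region width, list length and merging.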

Additional observations from a re-analysis of the deposited data

How the results depend on the processing

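Of 80 alternative values for the counts and shares above, 71 stayed within 1.5 times the value given or, for shares, within its interval. Those intervals are wide, so a fall from 3 overlaps to 2 still counted as staying within. With gene bodies alone the 8 genes held 5 Nan/+ and 6 WT regions, at 2 and 5 genes (23.5% of all genes in Nan/+ and 18.1% in WT by the same rule), and 0% of either overlapped the other list; fewer positions count by construction. With flanks of 50 kb there were 13 Nan/+ and 17 WT regions, and with the widest 50% of each list 8 Nan/+ and 6 WT regions. Without the Nan/+ regions of the minimum width there were 8 Nan/+ and 10 WT regions. Which list held more regions at the 8 genes thus depended on the setting. With 2 kb in place of 1 kb, 4 genes had a Nan/+ centre near an end and 6 a WT centre, with no all-gene share computed at 2 kb. The difference between the lists in regions per gene, Nan/+ minus WT, changed sign for Kat2a, from 1 to -1, with gene bodies alone and with flanks of 50 kb. Kat2a then had 0 Nan/+ and 1 WT regions with gene bodies alone, and 2 and 3 with flanks of 50 kb. Of the 64 such differences between the lists, 48 were equal to the value given and 14 others changed in size, several of them to or from 0. No paired analysis was possible because the 3 libraries of a genotype are represented by 1 list with no value per library. For the same reason no replicate could be left out. Because the lists hold called regions only, a region just under the calling threshold looks the same as no region.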
